A study of Mus musculus with 2 samples.

Results

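The S100 calcium-binding proteins were followed on the arrays of 2 pools of mouse liver. The family was taken as 10 listed genes (S100a1, S100a4, S100a6, S100a8, S100a9, S100a10, S100a11, S100a13, S100a16 and S100g), chosen by name from the 18193 genes that the array annotation names, with every probe set (the group of short probes that together read a transcript) that carries a member's symbol alone. Of the 10 members, 9 had such a probe set, 13 probe sets in all. S100a8 and S100a9, the members of myeloid cells, were set against the others.

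Both groups were C57BL/6J mice aged 2 months that received 1000000000 plaque-forming units of adenovirus into the tail vein, and livers were taken on day 3. The group called Ad-control received the empty vector and the group called Ad-PDK4 a vector that overexpresses PDK4, a kinase that inactivates the pyruvate dehydrogenase complex. The sources used here do not give the promoter that drives PDK4 in the vector. Livers of 4 Ad-control mice and of 3 Ad-PDK4 mice were pooled before labelling, so each group is 1 array of 1 pool, no spread between animals can be measured, and no p-value is given. All groups carried adenovirus, and liver without virus is not analysed here.

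S100 proteins are small proteins with EF-hand loops that bind calcium, and most work as dimers that change shape with calcium and then hold a target protein. S100a8 and S100a9 form the heterodimer calprotectin, which fills the cytoplasm of neutrophils and is carried by monocytes; once released it is a ligand of the receptors TLR4 and RAGE. S100a6, S100a10 and S100a11 are known from bile duct, stromal and vascular cells, and S100a4 from fibroblasts and macrophages.

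The values are deposited signal intensities on a linear scale, whose mean, after trimming 2% at either end, was 499.2 for the Ad-control pool and 499.5 for the Ad-PDK4 pool. A probe set was called measured where it reached the median of the array's probe sets (the floor), at 93.4 for Ad-control and 99.9 for Ad-PDK4. Differences are on the log2 scale, Ad-PDK4 minus Ad-control, centred on the median measured probe set (a shift of -0.01). A gene is represented by its brightest probe set. The error scale is the disagreement between probe sets of a gene, a pooled SD of 0.35 over 4326 genes, which leaves out error of a whole pool or array and the variation between mice. The probe set of Pdk4 read 234 in the Ad-control pool and 177 in the Ad-PDK4 pool, a log2 difference of -0.39, so the arrays do not show the overexpression and the groups are called by their labels. Whether that probe set reads the vector's transcript was not tested. All 7 hepatocyte markers on the array, such as albumin, were measured on both arrays and within 1.5-fold.

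Of the S100 family, S100a8 and S100a9 were the members at least 1.5-fold higher in the pool labelled Ad-PDK4, by 1.58-fold and 1.53-fold. The 5 other measured members (S100a1, S100a6, S100a10, S100a13 and S100a16) lay between log2 differences of -0.12 and 0.32, with a median of 0.0010. S100a4 and S100g were under the floor on both arrays and have no difference, and S100a11 has no probe set of its own. Thus 2 of the 7 measured were 1.5-fold higher or more and 0 were 1.5-fold lower, where 9.21% of the 10389 genes measured on both arrays were 1.5-fold higher and 5.2% lower. No member (0) was 2-fold apart, against 3.43% of all measured genes. In tissue pools, fewer cells of a type and less RNA per cell cannot be told apart.

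**Figure D1:**
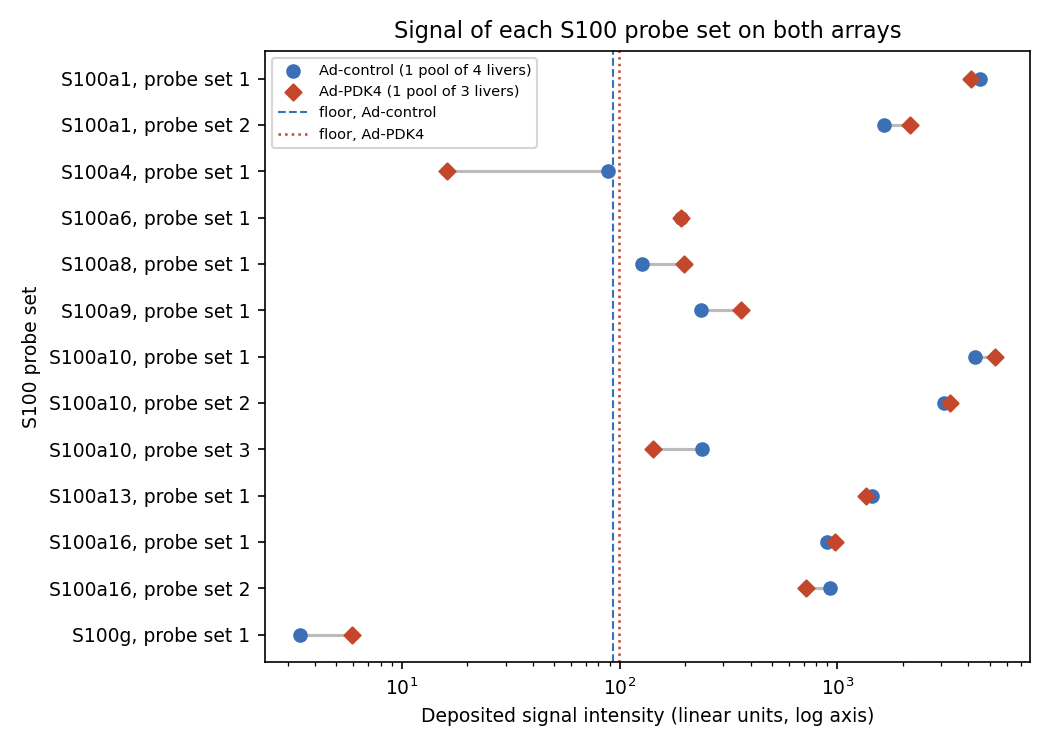
Deposited signal (log axis) of each of the 13 S100 probe sets on the Ad-control array (circles) and the Ad-PDK4 array (diamonds), with each array's floor as a vertical line; each point is 1 array of 1 pool. S100a8 and S100a9 sit to the right in the Ad-PDK4 pool but close to the floor, and S100a4 and S100g lie left of it on both arrays.

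S100a8, the smaller subunit of calprotectin, read 127 in the Ad-control pool and 198 in the Ad-PDK4 pool, a log2 difference of 0.66. Its only probe set is of the _s_at kind, which can match more than 1 transcript. S100a9, the larger subunit, gave 237 and 359, a log2 difference of 0.61. Both subunits were therefore higher on the same array, and their differences lay 0.047 apart. With a probe set SD of 0.35, that closeness cannot show that both differed by the same amount. Each subunit rests on 1 probe set, so no other probe set checks either value.

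Both subunits were dim, and dim genes varied more. On the Ad-control array 56.4% of probe sets were dimmer than that of S100a8 and 67.2% dimmer than that of S100a9. Measured genes were put in 4 bands of equal size by brightness. S100a8 fell in the dimmest band, where the SD of the log2 difference was 0.54 and 16.8% of genes were at least 1.5-fold higher. S100a9 fell in the next band, with an SD of 0.52 and 11.4% of genes 1.5-fold higher. The difference of S100a8 was 1.23 times the SD of its band and that of S100a9 was 1.19 times, so both lay little more than 1 SD from 0 among genes of like brightness. Both also lay just beyond the 1.5-fold limit, and the nearest member within it was S100a10 at 1.25-fold. With 50 added to each signal before the log, neither subunit reached 1.5-fold (log2 differences of 0.50 and 0.52). When the floor was raised to the 70th percentile, S100a8 fell under it on both arrays and S100a9 kept only a bound of at least 1.29-fold.

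**Figure D2:**
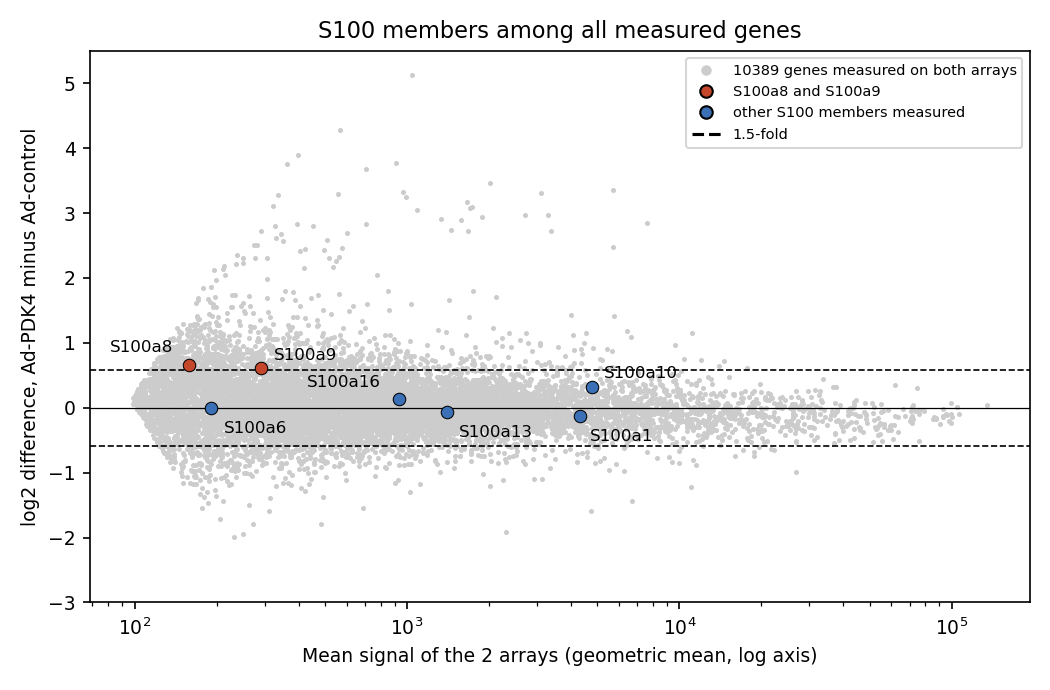
Log2 difference (Ad-PDK4 minus Ad-control) against mean signal (log axis) for the 10389 genes measured on both arrays (grey), with S100a8 and S100a9 in red, the 5 other measured members in blue and 1.5-fold as dashed lines. S100a8 (0.66) and S100a9 (0.61) lie just above the upper line, within the wide cloud of dim genes.

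The promoter windows of S100a8 and S100a9 are shown because these members were set against the rest of the family and are direct neighbours on the chromosome. Both are from RefSeq on GRCm38.p6, from 250 bases before to 50 bases after the annotated start, chr3:90668821-90669120 on the plus strand for S100a8 and chr3:90695672-90695971 on the minus strand for S100a9. Capitals mark TATAAA (the TATA box) and GAGGAA (the core read by the myeloid factor PU.1), on either strand.
S100a8: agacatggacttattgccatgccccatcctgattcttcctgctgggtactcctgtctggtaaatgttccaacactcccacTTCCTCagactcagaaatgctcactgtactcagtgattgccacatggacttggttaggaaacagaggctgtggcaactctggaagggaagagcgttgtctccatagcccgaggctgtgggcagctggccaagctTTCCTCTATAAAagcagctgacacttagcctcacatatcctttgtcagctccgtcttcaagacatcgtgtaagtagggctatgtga
S100a9: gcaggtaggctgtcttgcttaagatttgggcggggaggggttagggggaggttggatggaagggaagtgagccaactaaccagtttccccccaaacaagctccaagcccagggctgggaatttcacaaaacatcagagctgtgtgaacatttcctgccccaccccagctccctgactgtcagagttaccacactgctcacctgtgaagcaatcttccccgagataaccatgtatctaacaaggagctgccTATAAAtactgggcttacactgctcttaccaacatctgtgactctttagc
In the S100a8 window a TATAAA begins at -30 from the start, directly after an opposite-strand GAGGAA that begins at -36, and another GAGGAA match begins at -170. In the S100a9 window a TATAAA begins at base 1 of the annotated transcript, and GAGGAA has 0 matches. Of 32851 mouse windows of the same length, 13.6% hold TATAAA and 28.3% hold GAGGAA. Of the 10 windows of 9 members (S100a10 had none in the table), 4 hold GAGGAA: S100a4, S100a8, S100a11 and a window of S100a16. TATAAA is also in 4: S100a4, S100a8, S100a9 and S100g. Its place differs: within the 50 bases before the start it lies in S100a4 and S100a8, 2 of the 10 windows (2.73% of all windows), while in S100a9 and in S100g it begins at base 1 of the annotated transcript. A C/EBP site searched as TTGCNNAA has a match at -236 in S100a9 and 0 matches in S100a8, against 10.8% of all windows. The E-box, CANNTG, has 3 matches in S100a8 and 2 in S100a9 and is in 72.3% of windows. AP-1 (TGANTCA, in 7.81% of windows) and NF-kappaB (in 50.8%) have 0 matches in either. These are matches of letters only.

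The genes through which calprotectin is received and acts lay on both sides of 0. Of 12 measured genes of this list, 2 were at least 1.5-fold higher, 1 was lower and 9 lay within 1.5-fold, with a median log2 difference of -0.17. Over all measured genes 9.21% were higher and 5.2% lower by that much, and the counts are a description of these few genes. Tlr4, the receptor itself, read 101 in the Ad-control pool and 176 in the Ad-PDK4 pool (1.77-fold), but another of its 4 probe sets read 104 and 59.3, the latter under the floor. Ager, the gene of RAGE, was under the floor on both arrays with 59.4 and 51.9. Cd36, a fatty acid transporter that also takes up calprotectin-bound arachidonic acid, was highest at 1.99-fold. Its 3 probe sets ran from log2 differences of 0.31 to 0.99. Cyba (-0.69) and Cybb (-0.55), the membrane subunits of the phagocyte NADPH oxidase that calprotectin activates, were lowest, and the 3 probe sets of Cybb ran from -0.80 to 0.50.

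Markers of the cells that carry S100a8 and S100a9 were sparse or mixed. Of 10 neutrophil markers on the array, only 2 were measured on both arrays: Ngp, a granule protein, was higher (141 against 245, 1.75-fold) and Elane, neutrophil elastase, read 141 and 120 (-0.22). Mpo (myeloperoxidase, 129 against 71.4) and Csf3r (the G-CSF receptor, 201 against 41.3) were above the floor on the Ad-control array only, opposite to calprotectin. The other 6, among them Camp, Ltf and Mmp8, were under the floor on both arrays, as were 6072 of the 18193 named genes. Of those named genes 10389 were measured on both arrays. The summed signal of the neutrophil list was 907 in the Ad-control pool and 745 in the Ad-PDK4 pool. That sum takes each gene's brightest probe set, including genes under the floor, and most of its gap came from Csf3r. Of 10 measured monocyte and macrophage markers 8 lay within 1.5-fold, as did 85.6% of all measured genes, and 2 were lower, the Kupffer cell receptors Vsig4 (-1.19) and Clec4f (-1.13). Other markers of this list went both ways within 1.5-fold, such as Adgre1 (0.21), Cd5l (0.10), Csf1r (-0.13) and Lyz2 (-0.36). The highest members of the list were Cx3cr1 (0.53) and Cd68 (0.37). Its median was 0.061 and its summed signal was 10912 and 9874. The part of these cells in the calprotectin difference was not tested. Much larger differences went with the same pool. All 6 measured pancreatic acinar markers and all 7 measured markers of proliferating cells were 1.5-fold higher, against 9.21% of all measured genes. Their median log2 differences were 3.14 and 3.27, and their part in the S100 values was not tested.

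S100a10 was the highest member outside calprotectin, but its probe sets did not agree. S100a10, also called p11, has lost the calcium response of the family and forms a tetramer with annexin A2 at the plasma membrane. Its brightest probe set read 4278 in the Ad-control pool and 5295 in the Ad-PDK4 pool (0.32). The next read 3084 and 3291 (0.11), and the third, a dim one, read 239 and 142 (-0.74). So 2 probe sets pointed up and the third, which would be called 1.67-fold lower alone, pointed down. Among 1045 genes with 3 measured probe sets, 9.95% spanned a range as wide as the 1.06 of S100a10. Anxa2, its partner, read 944 and 906 (-0.044) with its brightest probe set. Another, of the _x_at kind, read 16.2 and 159, above the floor in the Ad-PDK4 pool only, and the last was under the floor on both arrays.

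S100a1 and S100a16 were likewise split between their probe sets. S100a1, known from heart and muscle as a regulator of calcium release and uptake, read 4515 in the Ad-control pool and 4111 in the Ad-PDK4 pool with its brightest probe set (-0.12), which is of the _s_at kind. Its other probe set read 1637 and 2151 (0.41), so that S100a1 has no settled direction: it was 0.14 as the median of both. S100a16, a widely expressed member, read 898 and 971 (0.13) with its brightest probe set. Its other probe set, of the _x_at kind, read 930 and 714 (-0.37), and the median turned to -0.12. All 3 members with several measured probe sets thus had values on both sides of 0, as did 50.6% of the 4326 such genes on the array. Over the 11 measured probe sets of the family, 7 were above 0 and 4 below. At least 1.5-fold higher were 2 of them and lower 1, against 8.87% and 6.21% of all named probe sets measured.

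S100a6 and S100a13, each read by 1 probe set, were nearly level. S100a6 (calcyclin), which rises in dividing fibroblasts and binds the ubiquitin ligase adaptor CacyBP, read 192 in the Ad-control pool and 191 in the Ad-PDK4 pool, a log2 difference of 0.0010. It lies in the same brightness band as S100a8, and its sign turned with the scaling (down to -0.055 after quantile normalization). Cacybp read 1832 and 1814, also level. S100a13, which helps export the growth factor FGF1 from cells, read 1435 and 1360 (-0.063), only -0.18 times the probe set SD. It was below 0 in all 8 alternative settings, which reuse the same 2 arrays and are no independent check. Fgf1 itself read 2704 and 3338 (0.32), with a lowest probe set at -0.46.

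S100a4, S100a11 and S100g could not be compared. S100a4, a partner of non-muscle myosin IIA, read 88.3 on the Ad-control array, just under its floor of 93.4, and 16.1 in the Ad-PDK4 pool. When the floor was lowered to the 30th percentile it was above it on the Ad-control array only, a bound of at least 2.27-fold lower, a setting in which 10.9% of genes were 1.5-fold lower. Myh9, the myosin heavy chain it binds, was level (-0.0046). S100g, the vitamin D-dependent calcium binder of the intestine, read 3.4 and 5.9, which only 4.02% and 7.52% of probe sets undercut. The probe set that lists S100a11 also lists the pseudogene S100a11-ps and Gm12854. It read 740 and 1228 (0.74), which cannot be assigned to any of the 3 and is left out of all counts. Anxa1, the partner of S100a11, read 502 and 348 (-0.51).

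Of 16 measured genes that bind an S100 protein, 16 lay within 1.5-fold, as did 85.6% of all measured genes, and their median was 0.023 against 0.015 for all measured genes. Ahnak (0.43), a scaffold held by S100a10 and annexin A2, and Sugt1 (0.36), a partner of S100a6, were the highest. The lowest were Anxa1 (-0.51) and Trpv6 (-0.42), a calcium channel that binds S100a10. The probe sets of Ahnak ran from -1.03 to 0.43. Of 7 measured annexins 7 lay within 1.5-fold (against that 85.6%; median -0.044), from Anxa1 and Anxa3 (-0.27) to Anxa5 (0.25) and Anxa4 (0.36). Of markers of the liver cells in which S100a6 and S100a10 are known, 9 of 10 for fibroblast and stellate cells and 6 of 8 for endothelium lay within 1.5-fold, beside the same 85.6%. Of 7 cholangiocyte markers on the array, 5 were under the floor on both arrays, as were 6072 of the 18193 named genes. Epcam was measured on both (266 in the Ad-control pool and 184 in the Ad-PDK4 pool, -0.52). Krt19 was above the floor on the Ad-control array only (123 and 17, chosen for mention after its values were seen). Under the floor, Krt7 (79.9 and 18.1) read lower in the Ad-PDK4 pool. Sox9 (55.3 and 80.7), Cftr (3.5 and 38.7), Tspan8 (23.4 and 54.5) and Cldn7 (4.1 and 58.8) read higher there.

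Along the chromosome the members did not share a direction. In the RefSeq order of GRCm38.p6, 9 of the 10 members lie on chromosome 3 and S100g on X. S100a8 and S100a9 follow each other with 0 protein-coding genes between them and lie on opposite strands. S100a6, separated from S100a8 by 1 gene, S100a7a, was level at 0.0010. Beyond S100a9, 56 protein-coding genes lie before S100a11, which is next to S100a10. S100a1 and S100a13 stand head to head at the far end, and their promoter windows share 204 of 300 bases. The S100a13 window (GRCm38.p6, chr3:90514185-90514484, plus strand) is shown because it holds the starts of 2 members that were both within 1.5-fold, with the bases shared with the S100a1 window (chr3:90514281-90514580, minus strand) in capitals.
S100a13: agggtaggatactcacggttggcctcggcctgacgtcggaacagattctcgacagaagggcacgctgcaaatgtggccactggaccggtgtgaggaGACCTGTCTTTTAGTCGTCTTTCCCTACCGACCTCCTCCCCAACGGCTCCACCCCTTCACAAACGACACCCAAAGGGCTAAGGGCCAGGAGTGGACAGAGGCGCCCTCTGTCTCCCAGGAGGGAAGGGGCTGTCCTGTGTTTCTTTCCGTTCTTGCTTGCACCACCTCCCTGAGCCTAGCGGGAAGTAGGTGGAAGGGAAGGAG
The brightest probe sets of these neighbours gave log2 differences of -0.12 (S100a1) and -0.063 (S100a13), 1 sign for both, but the other probe set of S100a1 gave 0.41.

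**Figure D3:**
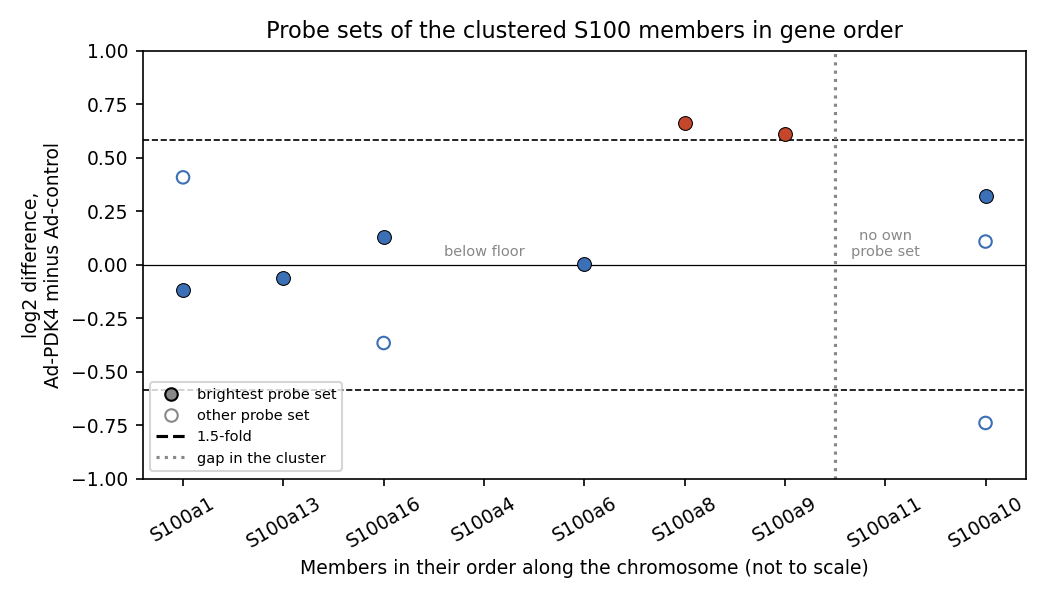
Log2 difference (Ad-PDK4 minus Ad-control) of each measured probe set of the 9 members on chromosome 3, in gene order and not to scale; filled points are the brightest probe set, open points the others, dashed lines 1.5-fold, and the dotted line the gap of 56 genes. S100a8 and S100a9 lie above the upper line, between S100a6 at 0 and a gap, and the probe sets of S100a1, S100a10 and S100a16 fall on both sides of 0.

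Set against each other, the mean of S100a8 and S100a9 was 0.64 and the median of the 5 other measured members 0.0010, a gap of 0.64. S100a8 lay 0.34 and S100a9 0.29 above the highest of the others, S100a10, which is less than the probe set SD of 0.35. A gap between 2 genes carries the error of both, so that SD is too narrow a scale for it. By the brightest probe sets both myeloid members thus stood above each of the 5 others, but S100a10 was not separated from them beyond that SD. Separation from the remaining measured members was not tested. The dimmer probe set of S100a1 gave 0.41, above the 0.32 of S100a10 and so nearer to both subunits. The shared probe set that lists S100a11 lay above both subunits at 0.74, but it cannot be assigned to a gene and is outside this comparison. In 8 of 8 alternative settings S100a9 lay above the median of the other measured members, as did S100a8 in the 7 that gave it a value. These settings reuse the same 2 arrays, so the count is no independent check. A change in the choice of probe set cannot alter a subunit read by 1 probe set.

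**Figure D4:**
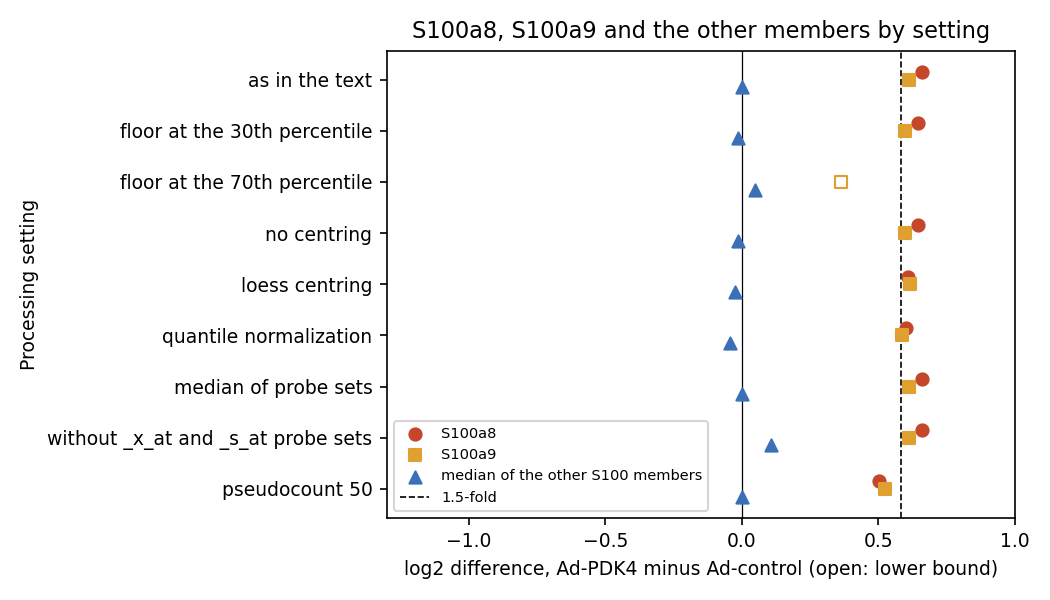
Log2 difference (Ad-PDK4 minus Ad-control) of S100a8, S100a9 and the median of the other measured members under each processing setting, with 1.5-fold as a dashed line; an open symbol is a lower bound, and S100a8 is missing where it was under the floor on both arrays. The subunits lie between 0.50 and 0.66 where measured, and the median of the others between -0.042 and 0.11.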

How the data were processed

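Signal intensity values, 1 for each probe set and pool, were taken as deposited from 2 Affymetrix arrays, per the labels hybridised with biotin-labelled cRNA from 10 ug of pooled liver RNA. The sources used here do not name the authors' probe summary, background correction or software. Of 45101 probe sets 64 controls were left out; 34958 carry 1 gene symbol, 932 several (not named) and 9211 none, by GEO's platform annotation, and the 9 member symbols matched the RefSeq table through their Entrez identifiers. Signals were taken to log2 with a floor at the 50th percentile; under it on 1 array, a gene was given a bound. With 1 pool per group no test was possible, and the number of arrays limits the precision. The members, the 13 context lists and the named genes were chosen with earlier results of these data known. Named are each member, genes tied to a member, and the 2 highest and 2 lowest of the partners, receptors, annexins and myeloid markers. Further genes are named from some lists, such as the neutrophil, macrophage and cholangiocyte markers, and other lists are given by counts. No gene was ranked by likeness, since 2 arrays give 1 difference per gene. Promoters were searched on both strands for 6 motifs. Calculations used Python 3.11.15, pandas 2.3.3 and statsmodels 0.14.6 and were tested on simulated data. Alternatives were the floor, the centring, the choice of probe set and a pseudocount.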

Additional observations from a re-analysis of the deposited data

How the results depend on the processing

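Of 54 member values recomputed under 8 alternatives, 53 moved by less than the probe set SD of 0.35; the other was S100a1, at 0.41 without _x_at and _s_at probe sets. The count of members 1.5-fold higher, 2 as reported, fell to 0 under a 70th percentile floor, where S100a8 had no value and S100a9 a bound, and to 0 with a pseudocount of 50; in the other 6 settings it was 2. The count of members 1.5-fold lower rose to 1 under a 30th percentile floor (S100a4) and stayed at 0 in the other settings. The background share of genes 1.5-fold higher ran from 5.3% (floor at the 70th percentile) to 13.3% (at the 30th). Of the list medians, that of the neutrophil markers turned to -0.23 over 7 genes under that lower floor, from 0.30 over 2. No paired analysis was possible because each group is 1 array, and no array can be left out. The number of arrays and the low signal of S100a8 and S100a9 limit the precision.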

Other observations

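Family members outside the list were dim, and S100b alone was above the floor on both arrays. S100b, the astrocyte member, read 98.2 in the Ad-control pool and 104 in the Ad-PDK4 pool with its brighter probe set, a log2 difference of 0.095. S100a5, which lies between S100a4 and S100a6, read 11.3 and 112.7 and was above the floor in the Ad-PDK4 pool only, a bound of at least 1.22-fold. S100a3 (20.9 and 40) and S100a14 (59.2 and 7.8) were under the floor on both arrays. The S100-fused proteins of skin barrier, chosen for mention after their values were seen, were under it as well: filaggrin (Flg) read 8.2 and 25, hornerin (Hrnr) 14.5 and 1.2, trichohyalin (Tchh) 1.8 and 11.5, and all 3 probe sets of repetin (Rptn) were at 70.5 or below. Other calcium-binding proteins, EF-hand sensors such as sorcin and the calpain subunits together with the reticulum chaperones calreticulin and calnexin, lay within 1.5-fold in 15 of 15 measured cases, beside 85.6% of all measured genes, with a median of 0.086.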
